A study of Xenopus tropicalis with 12 samples.

Results

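Among 34177 gene IDs counted in explants of frog ectoderm, 200 were selected on the difference in RNA level between replicate 2 and replicate 1 of both control groups, taken as those that differed most and in the same direction. Of these, 170 were higher and 30 were lower in replicate 2. For the selection, counts were scaled to CPM (counts relative to a library total of 1000000), and 10120 IDs with a mean of at least 5 CPM over the control libraries were kept. The difference d was log2(CPM + 0.5) in replicate 2 minus that in replicate 1. It had the same sign in both control groups for 7624 IDs, and the 200 with the largest value of the smaller |d| were taken. As replicates 1 and 2 of the controls chose these genes, their values there are given as a description and carry no test.

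The libraries were made from animal caps of Xenopus tropicalis, explants of prospective ectoderm, at NF stage 16, with 3 libraries in each of 4 groups. The hRescue explants came from embryos that received human Phf8 mRNA together with morpholinos against Suv4-20H1 and Suv4-20H2, and the hPhf8 explants from embryos with human Phf8 mRNA and no morpholino. The LacZ explants had LacZ mRNA and no morpholino, and the CoMo explants had a control morpholino and no mRNA. Both hRescue and hPhf8 thus carry the Phf8 mRNA, only hRescue carries the knockdown, and according to the study's methods each RNA sample pooled the explants of several embryos injected radially. The labels number the libraries 1 to 3 within each group but do not say whether a number stands for a clutch, a day or another batch. The p-values below therefore measure only the spread between these samples.

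Animal cap cells are pluripotent in the blastula and, left alone, form epidermis, with multiciliated cells, ionocytes and mucus-secreting goblet cells among a keratinised layer. The same cells turn to neural, neural crest, placodal or mesodermal fates when they meet the matching inducing signals. SUV4-20H enzymes add further methyl groups to a singly methylated lysine of histone H4, and PHF8 is a demethylase that removes the single methyl group. Where a gene varies between explants of equal treatment, that variation enters the spread against which a treatment effect on this gene is tested.

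A gene symbol could be paired with 69 of the 200 IDs, 54 of the higher and 15 of the lower members, from tables of the study that were held in part. This is 34.5% of the members, against 40.1% of the kept IDs. The other members are given by their ID, and those tables were ordered by the study's own test, so that which members have a symbol is not random.

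Gene counts ranged between 5258667 and 7444628 in hRescue, 2204210 and 14484963 in hPhf8, 14361942 and 35584520 in LacZ, and 16686987 and 20975779 in CoMo libraries. Replicate 2 of hPhf8 stood apart: it had the 2204210 counts, 12575 genes with a count against 18617 to 21185 in the other libraries, and 8.87% of its read pairs in genes against 23.4% to 45.9%. A feature without a gene ID, left out here, took 53.9% to 60.9% of all feature counts in hRescue and 16.6% to 31.6% in the other libraries. All 8 markers of ectoderm and epidermis were at 1 CPM or more in all 6 control libraries, and their sum lay between 3738 and 5064 CPM in all 12 libraries. Single markers differed in hRescue, where tp63 had 60.6 to 141 CPM, krt12 20.9 to 47.5 and epcam 1884 to 2578, against 740 to 1469, 51.1 to 308 and 1048 to 1545 CPM in the other groups. Of 6 mesoderm and endoderm markers, myog and mix1 had at most 3 counts in any control library, and the sum, with the selected member vegt in it, was 128 to 346 CPM in hRescue, 27.7 to 73.8 in hPhf8, 10.2 to 54.4 in LacZ and 13.5 to 35.1 in CoMo.

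The higher members had a median d of 1.94 in LacZ and 2.199 in CoMo, and the smaller of the 2 values ranged between 1.39 and 6.55. Among the lower members the smaller |d| ranged between 1.39 and 5.12. Summed over the 170 higher members, LacZ had 7300 CPM in replicate 2, 1764 in replicate 1 and 3057 in replicate 3, and CoMo had 7248, 1482 and 3485. The 30 lower members together had 1692, 4839 and 2792 CPM in LacZ and 1576, 4408 and 2665 CPM in CoMo, in the same order of replicates 2, 1 and 3. In both controls replicate 3 thus lay between the sums of replicates 1 and 2, which the rule had set apart. Higher members were of modest abundance, with a median of 12.9 CPM over the controls (5.01 to 467), and lower members had 19.4 CPM (5.22 to 1607), against 32.7 CPM for all kept IDs.

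**Figure D1:**
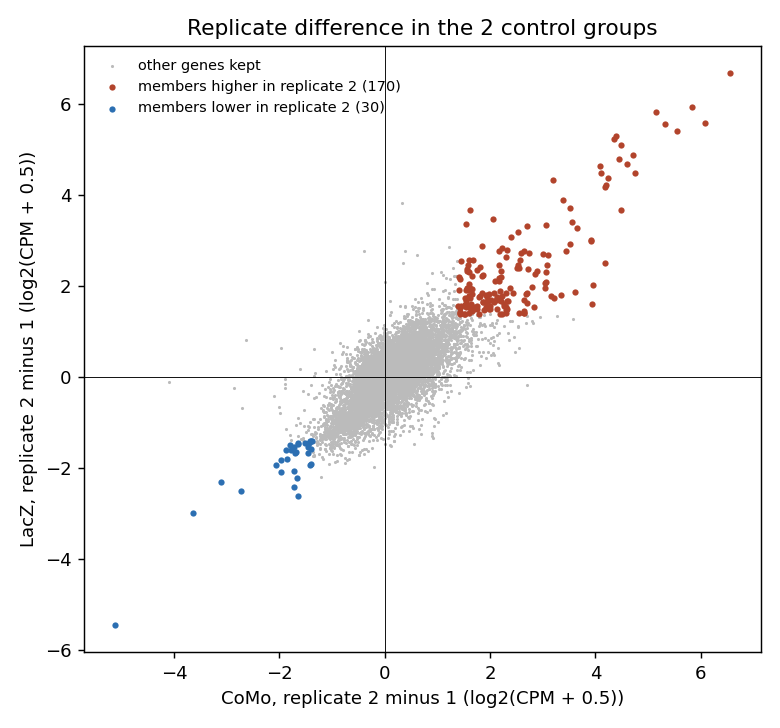
Difference d between replicates 2 and 1, in log2 units, in LacZ against that in CoMo, with a point for each kept gene ID and the higher and lower members in colour. The 170 higher and 30 lower members are the points farthest out in the quadrants where both controls share the sign.

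The selection leaned to genes higher in replicate 2, with 85% of the members against 64.8% of the same-sign IDs, and this share depended on the scaling. Over all kept IDs the median d was 0.14 in LacZ and 0.13 in CoMo. With TMM factors, which equalise the bulk of the genes, these medians moved by -0.15 and by -0.19, and the rule then took 131 higher and 69 lower IDs, a share of 65.5%, with 159 of the 200 members unchanged. All 200 members kept their sign in both controls under that scaling. Shifts of this size are far below the lowest smaller |d| of the members, 1.3865, so no sign could change. At the edge of the rule, tmem196 with a smaller |d| of 1.3868 and gene1257 with 1.3865 were just inside, and ncam1 with 1.3849 and fras1 with 1.3840 were just outside, all 4 higher in replicate 2.

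**Figure D2:**
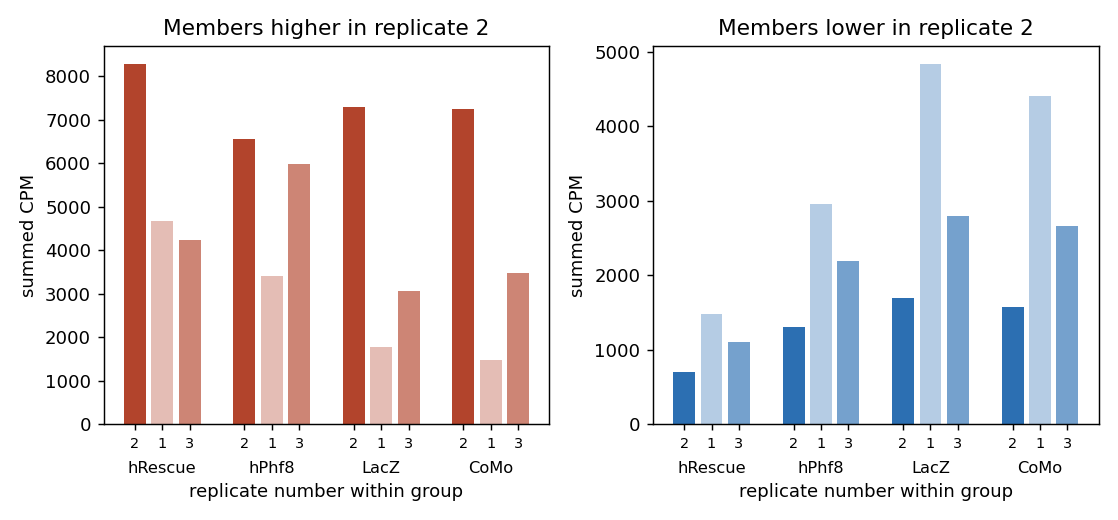
Summed CPM of the 170 higher members and of the 30 lower members in each of the 12 libraries, by group and replicate number, in the order of replicates 2, 1 and 3. Replicate 2 has the highest sum of the higher members and the lowest sum of the lower members in every group.

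Replicate 3, which entered the rule only through the mean level, most often fell between the others in the controls. The rule took genes whose replicates 1 and 2 lay far apart there, so a place between them is partly set by the selection. These counts are a description only. In CoMo, 159 of the 170 higher members had replicate 3 between replicates 1 and 2, with a median of 1.04 above replicate 1 in log2 units, and 95 were nearer to replicate 1. In LacZ 139 lay between, the median was 0.54 above replicate 1, and 130 were nearer to replicate 1. Replicate 3 was nearer to replicate 1 in both controls for 80 of them, nearer to replicate 2 in both for 25, and the controls were split for 65. Of the 30 lower members, 27 lay between in CoMo and 27 in LacZ, with 15 nearer to replicate 1 in both controls, 7 nearer to replicate 2 in both and 8 split.

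Replicates of hPhf8 and hRescue, which the rule did not use, mostly differed in the same direction. The higher members had a median d of 0.63 in hRescue and 0.84 in hPhf8, and 132 and 139 of the 170 were above 0 (77.6% and 81.8%). Among the other IDs that were higher in replicate 2 of both controls, 52.9% were above 0 in hRescue and 47.0% in hPhf8. For the lower members the median d was -1.06 in hRescue and -2.52 in hPhf8, with 28 of 30 below 0 in each (93.3%), against 74.4% and 79.0% of the other IDs lower in both controls. In replicate 2 of hPhf8, the library of lowest depth, 9 of the 30 had 0 counts and 12 had at most 3, against 0 in its replicate 1. The size of d in hPhf8 is therefore uncertain for these members. In total 106 of 170 higher and 26 of 30 lower members had 1 direction in all 4 groups. Of these, 31 and 13 differed by at least 1 log2 unit in each group. LacZ and CoMo met both conditions by the rule, so only hRescue and hPhf8 could depart from them. Only 5 members, all of them higher ones, went against the rule in both hRescue and hPhf8.

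The higher members summed to 8281, 4680 and 4235 CPM in replicates 2, 1 and 3 of hRescue and to 6567, 3400 and 5972 CPM in hPhf8, so that replicate 2 was 1.77 and 1.93 times replicate 1, beside 4.14 times in LacZ and 4.89 times in CoMo, whose values chose the members. The lower members summed to 701, 1486 and 1098 CPM in hRescue and to 1308, 2952 and 2186 CPM in hPhf8. Replicate 3 of hPhf8 was on the far side of replicate 2 for 71 of the 170 higher members, and replicate 3 of hRescue had a median of -0.03 against replicate 1.

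**Figure D3:**
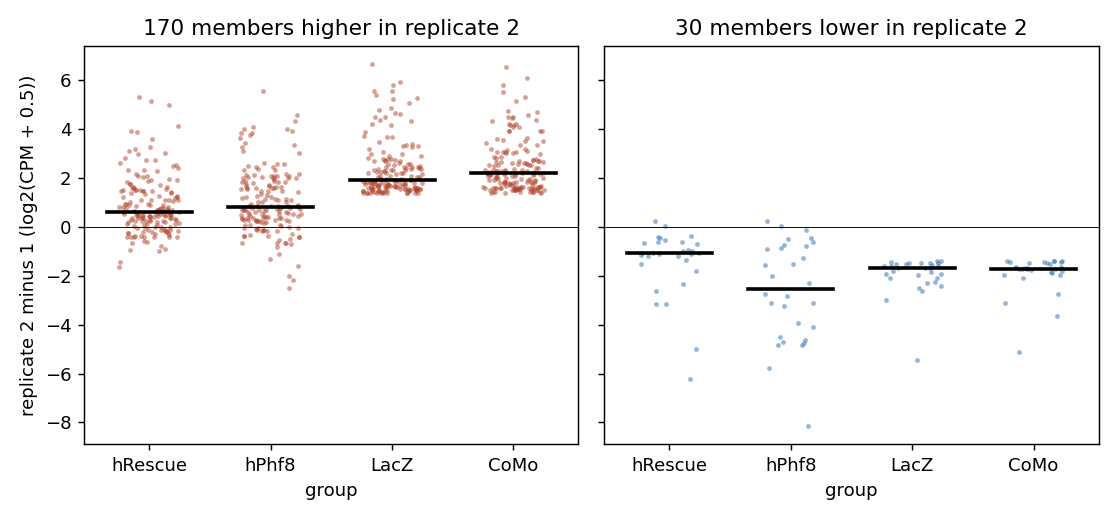
Difference d between replicates 2 and 1, in log2 units, for the 170 higher and the 30 lower members in hRescue, hPhf8, LacZ and CoMo, with a point for each member and a line at the median. The medians of the higher members are 0.63, 0.84, 1.94 and 2.199, and some members of hRescue and hPhf8 lie on the other side of 0.

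A test of replicate 2 against replicate 1 over the hRescue and hPhf8 libraries, with the group as a term in edgeR's quasi-likelihood fit, passed an adjusted p of 0.05 for 4 of 198 members tested, against 0.0317% of 15783 genes. They were 3 of the higher and 1 of the lower members, all in the direction of the rule (0.0253% and 0.00634% of all genes), and 182 of the 198 had the sign of d. At an unadjusted p under 0.05 there were 70 members (35.4%), against 6.49% of all genes tested. The fit leaves 2 residual degrees of freedom. It takes each replicate number as 1 effect shared by both groups, which the labels do not state. The numbers were not found to pair hRescue and hPhf8 (correlations 0.101, 0.124 and 0.015). A fit without hPhf8 replicate 2 leaves 1 library of replicate 2 and 1 residual degree of freedom. Its counts, given next, are a description only and add no support to the 4 calls. With hPhf8 replicate 2 left out, 35 of 199 members passed, 29 higher and 6 lower, all in the direction of the rule, against 0.656% of all genes (0.453% higher and 0.203% lower).

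The genes that passed carry no symbol. The ID gene5415, which also led the lower members, had 0.188, 50.5 and 68.1 CPM in hRescue, 0.454, 270.2 and 109 in hPhf8, 0.0562, 23.8 and 30.1 in LacZ and 0, 16.9 and 20.5 in CoMo (values here and below are for replicates 2, 1 and 3). Replicate 2 was at or near 0 in all 4 groups and the other replicates were not. The fitted log2 difference was -8.65 ± 0.74, edgeR adjusted p = 0.00377. The ID gene8302 had 50.02, 1.07 and 23.2 CPM in hRescue, 18.6, 0.828 and 16.9 in hPhf8, 32.2, 0.602 and 13.4 in LacZ and 38.7, 1.002 and 16.6 in CoMo, with replicate 1 lowest in every group (5.01 ± 0.58, edgeR adjusted p = 0.0275). For gene4454 the values were 164, 24.3 and 23.8 CPM in hRescue, 54.9, 9.53 and 10.7 in hPhf8, 36.6, 6.57 and 9.33 in LacZ and 50.7, 8.48 and 7.48 in CoMo, with replicate 2 the highest throughout (2.65 ± 0.32, edgeR adjusted p = 0.0284). The last, gene14108, listed under the locus name Xetrov90027395m.g, had 237, 29.3 and 127 CPM in hRescue, 318, 22.6 and 108 in hPhf8, 66.3, 5.96 and 67.5 in LacZ and 58.5, 19.9 and 57.1 in CoMo (3.43 ± 0.31, edgeR adjusted p = 0.00377), and in LacZ its replicate 3 was above replicate 2.

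A few members were close to absent in 1 replicate number whatever the injection. Besides gene5415, the IDs gene30183 and gene17087 had at most 3 counts in replicate 1 of all 4 groups. For gene30183 the values were 2.44, 0 and 10.1 CPM in hRescue, 23.1, 0 and 44.1 in hPhf8, 20.7, 0 and 42.0 in LacZ and 22.9, 0 and 47.5 in CoMo, at least 6.07-fold, 112-fold, 137-fold and 130-fold higher in replicate 2 of hRescue, hPhf8, LacZ and CoMo than a floor of 3 counts in that group's replicate 1. Replicate 3 was higher still in all 4 groups. The values of gene17087 were 0.564, 0.134 and 3.80 CPM in hRescue, 9.53, 0 and 15.5 in hPhf8, 9.92, 0 and 18.2 in LacZ and 10.01, 0.0589 and 22.5 in CoMo, in the same order of replicates. In hRescue its replicate 2 was also at the floor of 3 counts (0.564 CPM). No member was at or under 3 counts in replicate 3 of all groups.

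The ID with the largest difference of all, gene4562, had 85.9, 8.46 and 8.37 CPM in hRescue, 29.9, 47.7 and 48.2 in hPhf8, 86.3, 0.351 and 2.30 in LacZ and 57.4, 0.118 and 7.44 in CoMo. It was highest in replicate 2 of hRescue, LacZ and CoMo, and in hPhf8 replicate 2 was the lowest of the 3. The replicate comparison did not pass the test in hRescue and hPhf8 together (1.78 ± 0.88, edgeR adjusted p = 0.780). Without hPhf8 replicate 2, which leaves 1 library of replicate 2, the value was 3.34. Without hRescue replicate 2 the value changed sign, to -0.54.

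Catecholamine and neuroendocrine genes were among the higher members, a grouping that, like the other role groups below, was made after the values were seen and carries no test. These 5 genes were th, which encodes tyrosine hydroxylase, the rate-limiting enzyme of catecholamine synthesis, dbh, which makes noradrenaline out of dopamine, the dopamine transporter slc6a3, the GDNF receptor ret and the secretory granule protein chga. Together they had 804, 153 and 384 CPM in replicates 2, 1 and 3 of hPhf8, 896, 321 and 586 CPM in LacZ and 891, 165 and 638 CPM in CoMo, while in hRescue they summed to 12.6, 15.7 and 32.7 CPM. Replicate 1 was thus the lowest outside hRescue for the group as a whole. chga, the most abundant higher member with olfm4, had 10.3, 11.6 and 23.0 CPM in hRescue, 669.6, 131 and 310.0 in hPhf8, 688, 260.2 and 491 in LacZ and 687, 139 and 535 in CoMo. All 3 hRescue values of chga lay below every value of the other groups. For th the values were 0.940, 1.34 and 2.28 CPM in hRescue, 58.5, 3.59 and 13.0 in hPhf8, 25.1, 5.76 and 11.3 in LacZ and 41.7, 2.24 and 10.8 in CoMo, and for dbh 0.188, 0.672 and 1.71 CPM in hRescue, 30.4, 9.67 and 20.9 in hPhf8, 50.6, 18.9 and 31.9 in LacZ and 56.1, 8.602 and 27.4 in CoMo. Replicate 2 was the highest of the 3 for th, dbh and chga in hPhf8, LacZ and CoMo. The transporter slc6a3 had 0.376, 1.88 and 5.13 CPM in hRescue, 39.5, 6.77 and 31.7 in hPhf8, 116, 32.4 and 46.9 in LacZ and 89.95, 13.7 and 54.4 in CoMo, and ret had 0.752, 0.269 and 0.570 CPM in hRescue, 5.90, 1.105 and 7.87 in hPhf8, 17.1, 3.71 and 5.36 in LacZ and 16.7, 1.59 and 10.2 in CoMo. All 5 had a positive d in hPhf8, with a median of 2.34, and in hRescue, where their levels were low, 1 of 5 did.

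Neural and placodal genes made up another 7 higher members, tlx3, onecut1.2, elavl3, nes, eya1, emx1 and zeb2. Their median d was 0.25 in hRescue, 1.82 in hPhf8, 1.83 in LacZ and 2.71 in CoMo. Of the 7, 4 were above 0 in hRescue and 7 in hPhf8, while in LacZ and CoMo the rule fixed the sign. zeb2, a zinc-finger repressor active in neural and crest cells, had 9.21, 1.34 and 1.33 CPM in hRescue, 19.1, 3.80 and 32.8 in hPhf8, 19.7, 0.501 and 0.766 in LacZ and 10.1, 0.648 and 3.38 in CoMo. In hPhf8 its replicate 3 was the highest, unlike in the other groups. onecut1.2, a Onecut-family transcription factor with near copies in the genome, so that its counts are uncertain, had 0.940, 0 and 0.951 CPM in hRescue, 20.9, 0.828 and 10.5 in hPhf8, 13.7, 2.26 and 4.60 in LacZ and 16.1, 2.003 and 6.29 in CoMo. The homeobox gene tlx3, a selector of sensory neuron fate, had 2.82, 0.672 and 0.761 CPM in hRescue, 27.2, 2.07 and 11.7 in hPhf8, 26.1, 8.12 and 10.03 in LacZ and 26.2, 3.59 and 18.2 in CoMo. Each of these was lowest in replicate 1 of hPhf8, LacZ and CoMo. The neuronal RNA-binding protein gene elavl3 had 19.6, 24.4 and 15.4 CPM in hRescue, 34.0, 9.25 and 57.3 in hPhf8, 41.8, 11.7 and 9.61 in LacZ and 57.7, 5.24 and 15.4 in CoMo, the intermediate filament gene nes, for nestin, had 2.82, 2.28 and 1.33 CPM in hRescue, 3.18, 1.93 and 21.0 in hPhf8, 19.7, 4.86 and 2.92 in LacZ and 15.0, 4.65 and 11.3 in CoMo, and eya1, a regulator of placodes, had 9.59, 11.7 and 10.5 CPM in hRescue, 34.9, 28.9 and 104 in hPhf8, 44.8, 12.2 and 22.6 in LacZ and 55.1, 13.6 and 39.2 in CoMo. Replicate 3 of hPhf8 was above its replicate 2 for elavl3, nes and eya1. The forebrain homeobox gene emx1 had 19.2, 25.4 and 25.1 CPM in hRescue, 27.2, 17.5 and 32.6 in hPhf8, 21.7, 7.37 and 10.6 in LacZ and 21.0, 4.42 and 10.2 in CoMo.

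Feedback inhibitors of FGF signalling also stood among the higher members, namely spry2, spry4 and il17rd, together with dusp8, a phosphatase of MAP kinases. The 4 summed to 250.3, 174 and 155 CPM in hRescue, 171, 86.2 and 140.3 CPM in hPhf8, 209, 56.2 and 75.1 CPM in LacZ and 201, 46.0 and 133 CPM in CoMo. Replicate 2 had the highest sum in each group. Single genes were spry4 with 95.7, 54.9 and 57.4 CPM in hRescue, 63.5, 46.1 and 58.6 in hPhf8, 102, 25.9 and 34.95 in LacZ and 104, 19.6 and 68.2 in CoMo and spry2 with 28.2, 19.9 and 21.1 CPM in hRescue, 63.5, 22.6 and 48.1 in hPhf8, 64.3, 20.3 and 22.4 in LacZ and 56.6, 14.5 and 38.9 in CoMo. For il17rd the values were 40.1, 40.4 and 25.3 CPM in hRescue, 36.3, 9.53 and 16.8 in hPhf8, 19.8, 3.91 and 3.97 in LacZ and 16.7, 6.01 and 8.63 in CoMo, and for dusp8 86.3, 59.0 and 51.3 CPM in hRescue, 7.71, 7.87 and 16.9 in hPhf8, 22.9, 6.17 and 13.8 in LacZ and 23.8, 5.95 and 17.7 in CoMo. In hRescue, il17rd was nearly equal in replicates 2 and 1, and dusp8 was nearly equal in those of hPhf8.

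Genes of the extracellular matrix and cell surface were the most numerous role group, with 8 members. Their median d was 1.101 in hRescue, 1.73 in hPhf8, 2.14 in LacZ and 2.41 in CoMo. All 8 were above 0 in hRescue and 7 in hPhf8, and in LacZ and CoMo the sign was again fixed by the rule. fbn3, which encodes a fibrillin of elastic microfibrils and is second among the named higher members, had 19.7, 0 and 3.23 CPM in hRescue, 29.5, 1.24 and 88.5 in hPhf8, 58.0, 1.05 and 1.18 in LacZ and 23.1, 0.648 and 1.19 in CoMo. It was 0 in replicate 1 of hRescue, where replicate 2 was at least 49.0-fold above the floor of 3 counts. Its replicate 2 was the highest in hRescue, LacZ and CoMo, and replicate 3 in hPhf8. anos1, encoding anosmin, a secreted protein that guides migrating neurons, had 0.752, 0.403 and 0.190 CPM in hRescue, 28.6, 6.90 and 7.10 in hPhf8, 14.5, 1.80 and 1.81 in LacZ and 14.9, 1.41 and 4.34 in CoMo, and wisp3 (CCN6), a matricellular protein, had 22.6, 7.79 and 5.70 CPM in hRescue, 115, 19.0 and 9.78 in hPhf8, 16.8, 1.40 and 2.85 in LacZ and 19.4, 2.95 and 3.099 in CoMo. Antisense counts were 11.8% of the counts at wisp3. The laminin chain gene lamb1 had 23.3, 9.54 and 30.2 CPM in hRescue, 307, 186 and 269 in hPhf8, 291, 80.5 and 102 in LacZ and 289, 58.4 and 115 in CoMo, with hRescue below all other groups. The basement membrane gene frem1 had 1.32, 0.672 and 6.09 CPM in hRescue, 60.3, 21.3 and 24.7 in hPhf8, 63.9, 16.1 and 40.9 in LacZ and 47.9, 5.36 and 13.6 in CoMo, and hmcn2, a hemicentin, had 111, 57.0 and 65.2 CPM in hRescue, 85.3, 20.02 and 50.6 in hPhf8, 39.8, 13.7 and 17.96 in LacZ and 43.0, 15.7 and 23.5 in CoMo. Of the enzymes, the collagen lysyl hydroxylase plod2 had 21.1, 6.04 and 10.1 CPM in hRescue, 29.5, 16.1 and 50.5 in hPhf8, 51.4, 9.82 and 7.52 in LacZ and 32.5, 6.66 and 8.20 in CoMo and the metalloprotease mmp3 had 11.1, 7.52 and 9.13 CPM in hRescue, 44.0, 62.3 and 42.2 in hPhf8, 74.5, 28.1 and 33.4 in LacZ and 53.04, 18.1 and 19.9 in CoMo. Only mmp3 was lower in replicate 2 than in replicate 1 of hPhf8.

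Receptors of guidance cues were nrp1, robo1 and flrt3. The semaphorin and VEGF co-receptor nrp1 had 3.57, 1.88 and 1.71 CPM in hRescue, 28.1, 4.21 and 17.5 in hPhf8, 32.5, 2.81 and 1.88 in LacZ and 12.6, 1.53 and 4.91 in CoMo. The Slit receptor robo1 had 16.2, 4.43 and 5.13 CPM in hRescue, 10.4, 13.1 and 18.7 in hPhf8, 26.0, 3.41 and 3.06 in LacZ and 17.1, 3.42 and 7.58 in CoMo, and flrt3, an adhesion molecule that also binds FGF receptors, had 42.5, 35.2 and 34.2 CPM in hRescue, 55.8, 88.6 and 94.4 in hPhf8, 70.4, 13.8 and 38.5 in LacZ and 81.4, 9.25 and 17.6 in CoMo. In hPhf8 only nrp1 was higher in replicate 2 than in replicate 1, whereas in hRescue all 3 were.

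Wnt genes among the members were the receptor fzd7 and sp5l, an Sp-family factor that acts downstream of Wnt. fzd7 had 272, 295 and 183 CPM in hRescue, 93.0, 41.1 and 159 in hPhf8, 87.7, 22.1 and 38.8 in LacZ and 101, 33.1 and 56.6 in CoMo and sp5l had 56.2, 29.8 and 21.1 CPM in hRescue, 19.1, 21.1 and 24.3 in hPhf8, 31.95, 4.21 and 7.17 in LacZ and 26.4, 4.89 and 9.15 in CoMo. Replicate 2 was the highest for both in LacZ and CoMo, and in hRescue fzd7 was slightly higher in replicate 1. The T-box determinant vegt, which specifies endoderm and mesoderm, was the sole member found in the gene lists of cell types and pathways. It had 243, 212 and 89.4 CPM in hRescue, 26.8, 15.3 and 5.66 in hPhf8, 18.9, 2.61 and 4.39 in LacZ and 16.8, 3.005 and 5.77 in CoMo, and the apelin receptor gene aplnr, active in mesoderm and early vessels, had 121, 156 and 51.0 CPM in hRescue, 20.9, 27.8 and 15.1 in hPhf8, 29.2, 9.57 and 4.25 in LacZ and 26.4, 7.48 and 5.77 in CoMo. For vegt every hRescue value was above every value of the other groups, and the same held for aplnr.

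The remaining named higher members were apoc1-like, znf703, plekhg5 and olfm4. apoc1-like, with the largest difference of any named member, had 6.58, 1.34 and 1.90 CPM in hRescue, 20.4, 7.87 and 30.1 in hPhf8, 27.1, 0.201 and 0.279 in LacZ and 16.2, 0.295 and 1.33 in CoMo. Apolipoprotein genes of this kind have close copies, so its counts are uncertain. The zinc-finger corepressor znf703 had 214, 178 and 108 CPM in hRescue, 52.2, 57.9 and 63.3 in hPhf8, 74.9, 8.87 and 11.4 in LacZ and 87.8, 5.36 and 16.5 in CoMo, and plekhg5 had 51.0, 47.3 and 24.9 CPM in hRescue, 7.71, 12.3 and 13.8 in hPhf8, 16.6, 2.36 and 4.25 in LacZ and 17.9, 2.59 and 4.24 in CoMo. Both were lower in replicate 2 than in replicate 1 of hPhf8. olfm4, a secreted olfactomedin, had 49.8, 98.6 and 63.9 CPM in hRescue, 230.5, 401 and 489.8 in hPhf8, 529, 154 and 219 in LacZ and 519, 111 and 195 in CoMo. Its replicate 2 was the highest in LacZ and CoMo and the lowest in hRescue and hPhf8.

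**Figure D4:**
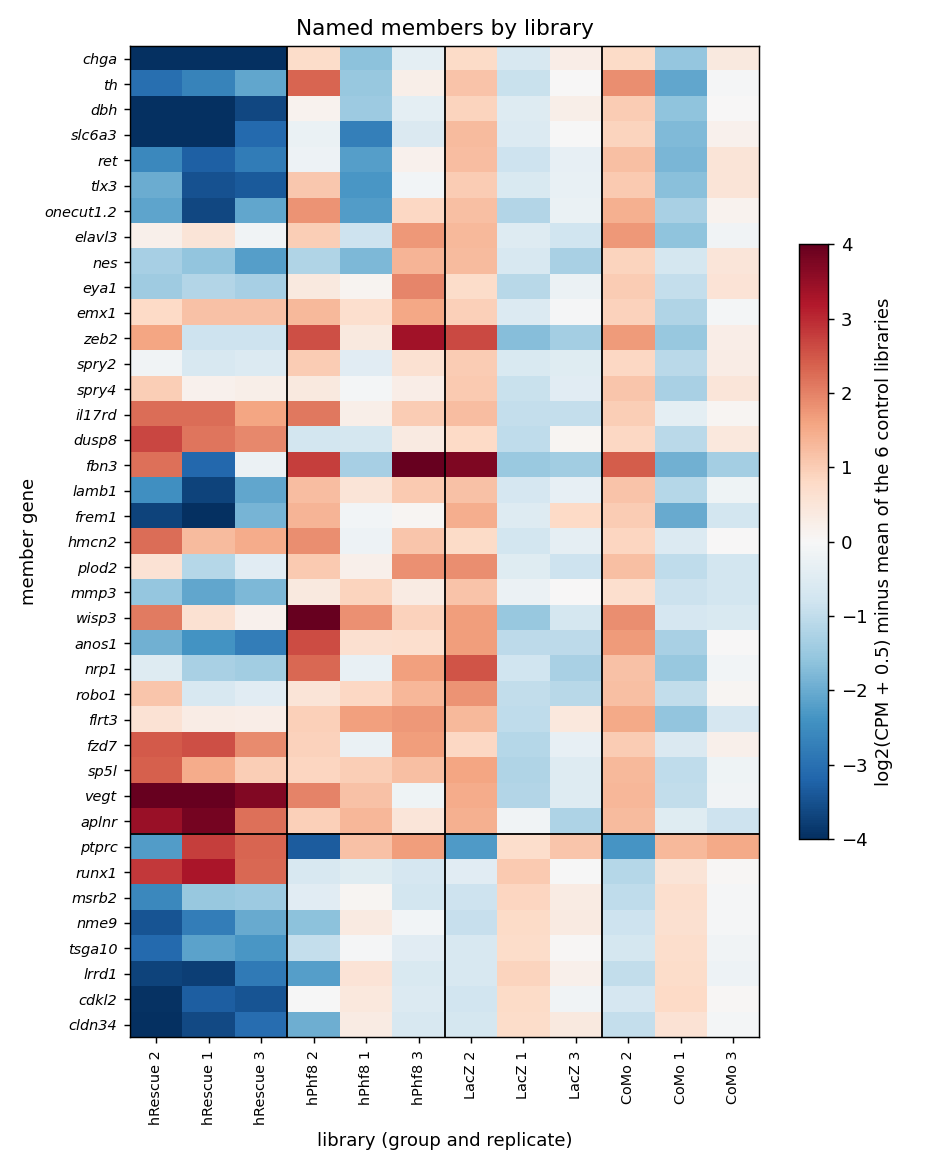
Heat map of log2(CPM + 0.5) minus each gene's mean over the 6 control libraries, with colours limited to -4 and 4, and with 31 higher members of the role groups above 8 lower members as rows and the libraries as columns, grouped as hRescue, hPhf8, LacZ and CoMo with replicates 2, 1 and 3 in each. Replicate 2 of LacZ and CoMo stands above replicate 1 for the higher members and below it for the lower ones.

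Lower members with a symbol were of diverse roles. ptprc, which encodes the leukocyte phosphatase CD45, had 0.564, 33.6 and 24.9 CPM in hRescue, 0, 10.8 and 15.4 in hPhf8, 0.534, 7.67 and 10.3 in LacZ and 0.479, 11.8 and 13.9 in CoMo. Its replicate 2 was at most 0.564 CPM in every group, and the lowest value of any other replicate was 7.67 CPM. The replicate comparison in hRescue and hPhf8 gave -5.91 ± 0.81, edgeR adjusted p = 0.0619. Without hPhf8 replicate 2, which leaves 1 library of replicate 2, the value was -5.64. runx1, a transcription factor of blood and sensory neurons, had 69.6, 94.4 and 47.5 CPM in hRescue, 5.90, 6.49 and 5.66 in hPhf8, 6.77, 19.7 and 9.19 in LacZ and 4.02, 13.7 and 9.63 in CoMo. All hRescue values of runx1 were above those of the other groups. The most abundant named lower members were tsga10, whose product is found at centrioles and the sperm tail, with 68.8, 135 and 119 CPM in hRescue, 309, 579.7 and 435 in hPhf8, 381, 1008 and 618 in LacZ and 369.7, 976 and 546 in CoMo, and nme9, of the nucleoside diphosphate kinase family, with 10.7, 17.5 and 29.9 CPM in hRescue, 38.6, 158 and 112 in hPhf8, 64.8, 208 and 159 in LacZ and 68.9, 189.8 and 119 in CoMo. Both were lowest in replicate 2 and highest in replicate 1 of hPhf8, LacZ and CoMo.

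For msrb2, a mitochondrial methionine sulfoxide reductase, the values were 13.7, 29.4 and 30.4 CPM in hRescue, 62.6, 89.1 and 51.0 in hPhf8, 47.9, 155 and 107 in LacZ and 41.6, 137 and 82.9 in CoMo. samd7, known in mouse photoreceptors as a Polycomb component, had 1.32, 3.63 and 3.61 CPM in hRescue, 0, 3.80 and 3.17 in hPhf8, 1.57, 6.87 and 3.34 in LacZ and 3.78, 16.1 and 7.48 in CoMo, and 32.7% of the counts at this gene were antisense. The remaining 5 named lower members were c2orf61, c14orf79, fam188b2, lrrd1 and vstm5. c2orf61 had 1.69, 2.69 and 4.18 CPM in hRescue, 0, 13.8 and 5.76 in hPhf8, 3.88, 18.05 and 13.5 in LacZ and 3.66, 15.7 and 9.15 in CoMo, c14orf79 had 0.376, 1.75 and 1.52 CPM in hRescue, 0, 13.8 and 4.80 in hPhf8, 2.78, 14.9 and 9.75 in LacZ and 2.40, 8.66 and 4.39 in CoMo and fam188b2 had 21.8, 28.6 and 22.6 CPM in hRescue, 28.6, 48.9 and 27.7 in hPhf8, 33.9, 104 and 60.8 in LacZ and 24.9, 86.3 and 55.0 in CoMo. Replicate 2 was below replicate 1 in every group for these 3 genes. lrrd1 had 1.13, 1.07 and 2.47 CPM in hRescue, 4.08, 30.4 and 13.3 in hPhf8, 13.0, 38.8 and 24.2 in LacZ and 10.1, 34.8 and 17.97 in CoMo and vstm5 had 4.14, 3.36 and 5.70 CPM in hRescue, 0, 27.1 and 8.73 in hPhf8, 17.1, 49.6 and 28.6 in LacZ and 9.29, 33.5 and 16.1 in CoMo. In hRescue both were close in replicates 2 and 1, with replicate 2 slightly the higher. Another pair of lower members are drawn in the plots, cdkl2, a cyclin-dependent kinase-like gene, with 0.940, 1.75 and 1.52 CPM in hRescue, 21.3, 29.2 and 14.7 in hPhf8, 12.4, 36.9 and 19.6 in LacZ and 13.5, 37.8 and 22.2 in CoMo and the claudin gene cldn34 with 1.32, 2.28 and 3.61 CPM in hRescue, 8.17, 42.0 and 20.9 in hPhf8, 20.01, 55.7 and 44.1 in LacZ and 17.1, 49.7 and 31.8 in CoMo. Replicate 2 of hPhf8 had 0 counts for ptprc, c2orf61, c14orf79, samd7 and vstm5, and with 2204210 counts in all it allows up to 1.36 CPM for such a gene (3 counts).

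Differences between the injections were asked next, in separate fits of 3 against 3 libraries. Members were selected for a wide gap between replicates 2 and 1 of LacZ and CoMo, so their spread within these groups is large by selection, and a low count of calls in a fit that holds either group without the block says nothing about the injections. LacZ against CoMo had no member called by edgeR among 199 (0% of 17988 genes), none by DESeq2, and 0 members at an unadjusted p under 0.05, against 3.42% of all genes. The standard error of the log2 fold change had a median of 0.64 for members and 0.32 for all genes, and with the replicate number as a block 0.21 for both. With the block, 35 members were at an unadjusted p under 0.05 (17.6%, against 11.7% of all genes) and again none past the adjusted threshold. The block takes out the very difference on which the members were chosen in these libraries. The fall in standard error and the blocked share are thus partly set by the selection.

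hPhf8 against CoMo also called none of 199 members (0% of 16843 genes) with edgeR or DESeq2, with 2 members at an unadjusted p under 0.05 and 3.25% of all genes. The standard error of members, with a median of 0.64 against 0.46 for all genes, again holds the selected spread of CoMo. A block on the replicate number gave 0 calls, with 46 members at an unadjusted p under 0.05 (23.1%, against 6.76% of all genes). As the block takes out the difference that chose the members in CoMo, this share is not read as an effect of the injection. Members passed only when the block was combined with leaving out hPhf8 replicate 2, an alternative chosen after seeing the data. It leaves 1 residual degree of freedom, and 122 members passed, against 18.3% of all genes. Of the 122, 115 went in the direction of the rule. That fit rests on replicates 1 and 3, and replicate 1 of CoMo chose the members. These calls are thus in part set by the selection and are not read as an effect of the injection.

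Fits of hRescue called members against both groups, without the block at shares not far from those of all genes. Against hPhf8, edgeR called 50 of 198 members (25.3%), 14 higher and 36 lower in hRescue, against 20.4% of all genes (9.16% higher and 11.3% lower). Of the 168 tested members that were higher in replicate 2, 13 rose and 28 fell in hRescue. Of the 30 that were lower in replicate 2, 1 rose and 8 fell. Without hRescue replicate 1 it called 26 members and 9.75% of all genes, and without hPhf8 replicate 2 it called 72 members and 30.1%. Against CoMo it called 60 of 199 members, 15 higher and 45 lower, against 33.4% of 17099 genes (14.7% higher and 18.7% lower). That is 30.2% of the members. The 2 signs of d differed here: of 169 members higher in replicate 2, 14 rose and 26 fell in hRescue. Of the 30 lower in replicate 2, 1 rose and 19 fell. With the replicate block 90 members passed against CoMo (45.2%), 32 higher and 58 lower, 59 of them shared, against 36.3% of all genes. The split by direction also moved without CoMo replicate 2, a library that chose the members, to 38 higher and 44 lower. Both comparisons share the hRescue libraries, and CoMo is a group whose replicates chose the members. Members also had to reach a minimum mean CPM over the control libraries, which the genes tested did not. Genes low in the controls and high in hRescue could thus be tested but could not be members. All genes tested are therefore not a like set for the members' shares or their split by direction, and no lean to lower values is concluded.

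**Figure D5:**
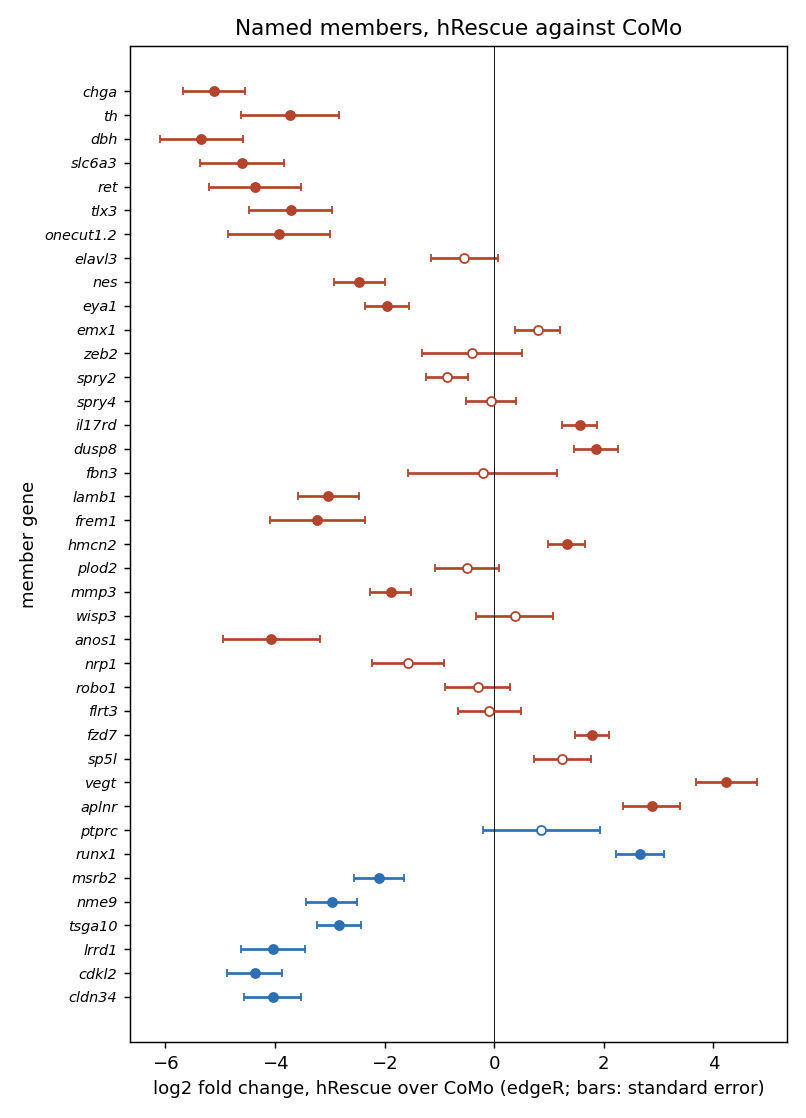
Log2 fold change of hRescue against CoMo with its standard error for named members, from edgeR's quasi-likelihood fit on 3 libraries per group, with higher members in red, lower members in blue and filled points for those past an adjusted p of 0.05. chga, dbh and slc6a3 lie farthest below 0 and vegt farthest above it.

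All 5 catecholamine and neuroendocrine genes fell in hRescue against CoMo, where 18.7% of all genes tested were called lower. Symbols came from parts of the study's tables ordered by its own tests, which include hRescue against hPhf8. Having a symbol may thus favour genes that differ in hRescue. The counts of calls by role group, here and below, are therefore a description and do not stand for the members as a whole. The log2 fold change (± SE, n = 3 libraries per group) was -5.11 ± 0.57, edgeR adjusted p = 0.000232, for chga and -5.35 ± 0.75, edgeR adjusted p = 0.000628, for dbh. The others gave -4.61 ± 0.77 for slc6a3, -4.37 ± 0.84 for ret and -3.72 ± 0.89 for th, with edgeR adjusted p of 0.00148, 0.00327 and 0.00990. Against hPhf8, chga gave -4.71 ± 0.60, edgeR adjusted p = 0.00135, and dbh gave -4.63 ± 0.74, edgeR adjusted p = 0.00317. Leaving out hRescue replicate 1 ended the call of th against CoMo.

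Of the 7 neural and placodal genes, tlx3, onecut1.2, nes and eya1 fell, by 3.72, 3.92, 2.46 and 1.96 on the log2 scale, with edgeR adjusted p of 0.00410, 0.00926, 0.00271 and 0.00446. The rest did not pass, with elavl3 at -0.54 ± 0.61, edgeR adjusted p = 0.532, and a value of 0.61 without CoMo replicate 2. Of the 8 matrix genes, lamb1 (-3.03 ± 0.56, edgeR adjusted p = 0.00247), anos1 (-4.06 ± 0.88, edgeR adjusted p = 0.00595), frem1 (-3.23 ± 0.87, edgeR adjusted p = 0.0170) and mmp3 (-1.89 ± 0.38, edgeR adjusted p = 0.00387) fell, and hmcn2 rose (1.32 ± 0.34, edgeR adjusted p = 0.0148). The calls of frem1 and hmcn2 were lost without hRescue replicate 2, and that of frem1 also without hRescue replicate 1 and that of hmcn2 also without CoMo replicate 3. fbn3, with -0.21 ± 1.36, edgeR adjusted p = 0.922, changed sign when hRescue replicate 1, hRescue replicate 3 or CoMo replicate 2 was left out (0.40, 0.13 and 2.71). Against hPhf8, 3 of the 7 neural and placodal genes and 4 of the 8 matrix genes were called lower. None of either group, hmcn2 included, was called higher there.

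Of the 4 genes of FGF and MAP kinase feedback, il17rd (1.56 ± 0.32, edgeR adjusted p = 0.00476) and dusp8 (1.86 ± 0.40, edgeR adjusted p = 0.00579) rose and spry2 and spry4 did not pass, with -0.86 ± 0.38 and -0.06 ± 0.45. fzd7 rose against CoMo, with 1.78 ± 0.31, edgeR adjusted p = 0.00195. So did vegt (4.24 ± 0.55, edgeR adjusted p = 0.000435), aplnr (2.87 ± 0.53, edgeR adjusted p = 0.00252), runx1 (2.66 ± 0.44, edgeR adjusted p = 0.00138) and plekhg5 (2.16 ± 0.56, edgeR adjusted p = 0.0149), the last without a call when hRescue replicate 1 or CoMo replicate 3 was left out. olfm4 fell (-2.13 ± 0.44, edgeR adjusted p = 0.00489), as did the lower members msrb2, nme9, tsga10 and lrrd1, with log2 fold changes of -2.11 ± 0.46, -2.97 ± 0.47, -2.83 ± 0.40 and -4.04 ± 0.58 and edgeR adjusted p of 0.00618, 0.00113, 0.000664 and 0.000702. Against hPhf8, which shares the Phf8 mRNA, only 1 of the 4 FGF and MAP kinase genes was called higher. fzd7 and sp5l were not called there, and vegt and aplnr were called higher. Of the 3 guidance receptor genes, 2 were called lower against hPhf8 and 0 against CoMo.

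For 5 members named here the replicate block changed the call against CoMo. znf703 had 2.06 ± 0.72, edgeR adjusted p = 0.0515 without it and 2.69 ± 0.52, edgeR adjusted p = 0.00281 with it (range over alternatives 0.000329 to 0.161). For sp5l the values were 1.24 ± 0.52, edgeR adjusted p = 0.0934 and 1.38 ± 0.27, edgeR adjusted p = 0.00310 (range 0.00310 to 0.347). nrp1 gave -1.58 ± 0.65, edgeR adjusted p = 0.0906 and -1.30 ± 0.43, edgeR adjusted p = 0.0394 (range 0.0142 to 0.345). ptprc had 0.86 ± 1.07, edgeR adjusted p = 0.575 and 0.79 ± 0.27, edgeR adjusted p = 0.0422 (range 0.0422 to 0.893), and gene5415 had 1.36 ± 1.32, edgeR adjusted p = 0.466 and 1.36 ± 0.27, edgeR adjusted p = 0.00311 (range 0.00311 to 0.792). znf703, sp5l, ptprc and gene5415 were higher in hRescue and nrp1 lower. The blocked fit leaves 2 residual degrees of freedom and takes out the replicate difference that chose these members in CoMo. Calls that appear only with the block are thus partly set by the selection.

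Lists of cell types were set beside the members to see what moved with the replicate number. Of all 10120 kept IDs, d was below 0 in both controls for 2683 and above 0 in both for 4941. None of 43 genes of multiciliated cells and motile cilia was a member, yet 42 of the 43 had d below 0 in both controls. Their median d was -0.48 in hRescue, -0.87 in hPhf8, -1.105 in LacZ and -0.77 in CoMo, and with TMM factors -0.39, -0.75, -1.25 and -0.96. The 6 multiciliated cell markers summed to 1868 CPM in replicate 2 and 3835 CPM in replicate 1 of LacZ, and to 2330 and 3811 CPM in CoMo. In these bulk samples fewer cells of a type and less RNA per cell cannot be told apart.

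Neural and neural crest genes went the other way in the controls, with 6 of 7 kept genes above 0 in both (5 of 7 with TMM factors). These 7 were the kept ones of 14 listed genes, too few to set firmly apart from the 4941 of 10120 kept IDs. Their median d was 0.96 in LacZ and 1.09 in CoMo. In hRescue and hPhf8 it was -0.25 and -0.15, below 0 as for the cilium genes. The 6 neural and crest markers summed to 116 CPM in replicate 2 and 49.4 CPM in replicate 1 of LacZ and to 136 and 38.9 CPM in CoMo. All 6 kept mesoderm and endoderm genes, vegt among them, were above 0 in both controls, with median d of 0.29, 0.74, 1.11 and 0.76 in hRescue, hPhf8, LacZ and CoMo, although 1 of the 6 was below 0 in CoMo with TMM factors. These 6 were the kept ones of 19 listed genes. The mean used for keeping a gene includes replicate 2, where vegt and chrd were highest in both controls. Both had under 5 CPM in replicate 1 of each control. The count of 6 is thus partly fixed by the filter and, for vegt, by the rule. The 6 mesoderm and endoderm markers hold vegt, a selected member, and the other 5 summed to 35.5 CPM in replicate 2 and 7.57 CPM in replicate 1 of LacZ and to 18.3 and 10.5 CPM in CoMo. The part of these cell types in the members' differences was not tested.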

How the data were processed

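RNA of the 12 explant samples was depleted of ribosomal RNA and sequenced as directional libraries. Per the labels and the study's methods, the authors aligned the reads with STAR 2.7.1a to the X. tropicalis v9.1 genome (Xenbase annotation converted with Cufflinks gffread) and deposited its whole-number counts per gene, not normalised, for 3 strand settings. The reverse-strand counts were used here, and the opposite strand served for antisense shares. The mapping summary lines and the feature without a gene ID were left out.

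CPM was the count over the sum of gene counts, scaled to a total of 1000000, and a pseudocount of 0.5 was added before log2. Group and replicate comparisons used edgeR 4.0.16 (quasi-likelihood test, TMM, R 4.3.3) on genes with at least 1 read in 75% of the libraries compared, with Benjamini-Hochberg adjustment over all genes and a threshold of 0.05. The study states the same limits of 1 read and 75% for the samples of a dataset, so its set of genes may differ. DESeq2 1.42.0 was an alternative, beside other scalings, unfiltered and unstranded counts, a replicate block, and fits that omitted 1 library each. The scripts were tested on simulated data. Precision follows the depth, and floors of 3 counts cover counting error only.

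The members and lists were chosen with earlier results of these data known. Named genes were, per direction, the 10 members with a symbol and the largest smaller |d|, the 2 most abundant, the member with the largest smaller |d| whatever its name, those next to the threshold and members of the gene lists. The genes of the role groups beyond these, cdkl2, cldn34 and the IDs gene30183 and gene17087, were chosen after their values were seen. Symbols came from the study's tables, of which no value was used.

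Whether equal replicate numbers pair the samples was checked by the correlation of deviations from the group means over 14587 genes. It was 0.754, 0.655 and 0.393 for numbers 1, 2 and 3 of LacZ and CoMo, 0.362, 0.110 and 0.129 for hPhf8 and CoMo, and 0.208, 0.410 and 0.218 for hRescue and CoMo, all over 0.1, so that the numbers were taken to pair these samples, as a property of the data and not of the labels. No correlation between unlike numbers is given as a reference for this limit. Numbers 2 and 3 of hPhf8 and CoMo were close to it, so the pairing there, and the block that rests on it, are uncertain.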

Additional observations from a re-analysis of the deposited data

Results flagged for a closer look

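The difference between replicates 2 and 1 of olfm4 (ID gene7736), a secreted olfactomedin, pointed opposite ways in the groups: it was -0.98 in hRescue and -0.80 in hPhf8, against 1.77 in LacZ and 2.22 in CoMo, in log2 units. This contrast between the groups was not tested.

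Antisense counts at the members, used only in the unstranded alternative, were 3.71%, 1.94% and 1.95% of the members' counts in hRescue replicates 1, 2 and 3 and 2.72% in hPhf8 replicate 2, above the level of all control libraries, which reached 1.03%. Over all genes the antisense share was 3.84% to 4.15% in hRescue, 23.5% in hPhf8 replicate 2 and 2.34% to 2.88% in the controls, above that of the members in each of these libraries.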

How the results depend on the processing

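Of the alternatives to the rule, a mean of at least 1 CPM shared 68 of the 200 members. The replicate comparison in hRescue and hPhf8, with 4 members called, gave 8 with library sizes, 22 with DESeq2 and 28 without a filter (0.076%, 0.494% and 0.852% of all genes). It gave 12 without hPhf8 replicate 3 and 15 without hRescue replicate 3 (0.303% and 0.618% of all genes), where 1 residual degree of freedom remains. Leaving out replicate 1 or 2 of a group leaves 1 library on 1 side of the comparison, so nothing is concluded from those fits. Their counts are left out here, and the count without hPhf8 replicate 2, given in the results, is a description only. Leaving out each library kept LacZ against CoMo and hPhf8 against CoMo at 0 to 0 members, hRescue against hPhf8 at 26 to 72 (9.75% and 30.1% of all genes) and hRescue against CoMo at 47 to 82 (24.8% and 35.2%). A replicate block with hPhf8 replicate 2 left out, chosen after seeing the data, gave 122 members for hPhf8 against CoMo and 109 for hRescue against hPhf8 (18.3% and 27.6% of all genes). The 122 rest in part on replicate 1 of CoMo, which chose the members. The numbers were not taken to pair hRescue and hPhf8 (correlations 0.101, 0.124 and 0.015 for numbers 1, 2 and 3). Number 3 was under the limit of 0.1, and numbers 1 and 2 were a little over it, so this is uncertain. The block there gave 61 members against 50. In the other 29 cases that left out no library the counts stayed within 1.5 times.

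Of 51 tests of single genes under 614 alternatives, 553 kept direction and side of the threshold, 13 lost and 37 gained the call, and 11 changed sign. These were gene4562 without hRescue replicate 2 (-0.54), elavl3 without CoMo replicate 2 (0.61), spry4 with library sizes (0.11), with the block (0.13), and without hRescue replicate 1 (0.11), hRescue replicate 3 (0.02), CoMo replicate 2 (0.34) or CoMo replicate 3 (0.04), and fbn3 without hRescue replicate 1 (0.40), hRescue replicate 3 (0.13) or CoMo replicate 2 (2.71). Over all fits with 1 library left out the values ran between -0.54 and 3.34 for gene4562, -1.03 and 0.61 for elavl3, -0.49 and 0.34 for spry4, and -2.55 and 2.71 for fbn3. The cause was not tested. Depth limits replicate 2 of hPhf8 most, where 3 counts are 1.36 CPM.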

Other observations

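Ionocyte genes, of which none was a member, differed between the controls. They were lower in replicate 2 than in replicate 1 of LacZ and mostly slightly higher in CoMo. All 21 kept genes of this list were below 0 in LacZ, with a median d of -0.81, while in CoMo 5 of the 21 were below 0 and the median was 0.31. With TMM factors the medians were -0.96 in LacZ and 0.12 in CoMo, with 21 and 8 of the 21 below 0. In hRescue and hPhf8 17 and 20 of the 21 were below 0, with medians of -0.40 and -1.34. Over all kept IDs, d was above 0 for 41.5% in hRescue, 37.1% in hPhf8, 61.1% in LacZ and 61.3% in CoMo.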
